A study of Mus musculus with 40 samples.

Results

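The genes described here build the cornified envelope and the barrier of stratified squamous epithelium. They were chosen as 24 listed genes plus every mouse gene whose symbol begins with Sprr or with Lce and a digit, which gave 62 genes. Of these, 56 had a row among the 23079 genes of the deposited count table: 23 listed genes, 14 Sprr genes and 19 Lce genes. Flg, Sprr2a2, Sprr2a3, Sprr2c-ps, Lce1j and Lce3d had none and were not analysed here. On the mouse assembly GRCm38.p6, 45 of the 62 genes lie together on chromosome 3 between Lor and Rptn (chr3:92080271-93399442, 1.32 Mb), the region known as the epidermal differentiation complex, and 17 lie elsewhere.

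When a squamous keratinocyte leaves the basal layer, it makes structural proteins such as involucrin, loricrin and the small proline-rich proteins. Transglutaminases then crosslink these proteins under the plasma membrane into an insoluble shell, the cornified envelope. Proteases, protease inhibitors and lipid enzymes act on the same cells to seal the surface and to control how dead cells are shed. The outer cervix and the vagina carry such an epithelium, while the inner cervix carries a mucus-secreting columnar one. Myometrium, the smooth muscle wall of the uterus, has no squamous epithelium.

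RNA was sequenced from cervix and myometrium of pregnant C57BL/6 mice, an inbred strain, at 18.5 days post coitum. The 40 libraries form 4 groups of 10, cervix and myometrium from mice given human chorionic gonadotropin (hCG), a placental hormone, and from mice given phosphate-buffered saline (PBS), both by intraperitoneal injection. The labels used here state neither the dose nor the time of injection. A library is named below by the number in its title, which the labels do not call an animal, so p-values measure the spread between these libraries.

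Total counts ran from 5449239 to 25028360 per library, and 10 of the 20 cervix libraries (hCG 1 to 6 and PBS 1 to 4) were deeper than the other 10. Levels are counts per 1e+06 counts of a library (CPM) after scaling by TMM factors, which correct for differences in RNA composition. A count of 0 allows a level of up to 0.117 CPM in the library with most counts and 0.597 CPM in that with fewest (3 counts, counting error only). The label cervix was checked against defining genes. Krt13 (mucosal squamous keratin) had 331 CPM or more in 19 cervix libraries and 1.49 CPM in the library labelled hCG 5. In that library Muc5b, the main cervical mucin, had 2.64 CPM and Pgr, the progesterone receptor, 7.56 CPM, against at least 1038 and 143 CPM in each of the other hCG cervix libraries. It held instead the highest sum of 5 uroplakins, the membrane proteins of urothelium (2304 CPM), and of 9 smooth muscle genes (27363 CPM) among the cervix libraries. Uroplakins summed to 626 CPM in hCG 3 and 188 CPM in hCG R3, to between 8.36 and 21.5 CPM in the remaining 7 hCG libraries, and to at most 61.4 CPM in a PBS library. In the myometrium libraries the smooth muscle genes summed to between 12206 and 29044 CPM. Calls between hCG and PBS cervix are therefore also given without hCG 3 and hCG 5, where 5 of all genes passed in place of 1331. Among PBS libraries, PBS 5, 6, 7 and 8 stood apart, with 17.5, 11.7, 5.89 and 3.51% of their counts from the gene Lars2. In any other cervix library it held at most 0.122% (PBS 4). Among the myometrium libraries Lars2 held 5.63% of counts in PBS 2, 4.61% in PBS 8 and 5.22% in hCG 3. It held at most 0.713% (hCG 1) in the others. Between hCG and PBS cervix, 1 of all genes and 0 members passed without cervix PBS 5 to 8. The part of this difference in the result was not tested.

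The sequence just before the start site was compared across the members, because the Sprr and Lce families of the complex differ there. RefSeq promoters on GRCm38.p6 (250 bases before to 50 after the start) were found for 54 of the 62 genes. A gene with several promoters was counted if any of them held the letters. The letters TATAAA on the gene's strand (TATA box) occurred in 20 of the 54 (37%) and in 9.77% of the 27025 genes with a promoter of that length. The letters TGANTCA on either strand (AP-1, the Jun and Fos factors) occurred in 19 of the 54 (35.2%), against 8.97% of all such genes. Among 14 Sprr genes, 10 held the TATA letters and 9 the AP-1 letters, while among 20 Lce genes 2 held the TATA letters and 0 the AP-1 letters. Shown here are the 250 bases before the start of 3 genes that hold both and of 1 Lce gene that holds neither, with the matches in capitals (GRCm38.p6, 5′ to 3′ on the gene's strand).
Sprr2f (chr3:92364937-92365186, plus strand): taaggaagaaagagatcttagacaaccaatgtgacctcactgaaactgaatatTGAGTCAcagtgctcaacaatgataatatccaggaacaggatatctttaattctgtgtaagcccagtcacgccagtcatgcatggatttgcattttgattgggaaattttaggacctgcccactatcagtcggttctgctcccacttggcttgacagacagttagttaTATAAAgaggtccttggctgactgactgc
Ivl (chr3:92573736-92573985, minus strand): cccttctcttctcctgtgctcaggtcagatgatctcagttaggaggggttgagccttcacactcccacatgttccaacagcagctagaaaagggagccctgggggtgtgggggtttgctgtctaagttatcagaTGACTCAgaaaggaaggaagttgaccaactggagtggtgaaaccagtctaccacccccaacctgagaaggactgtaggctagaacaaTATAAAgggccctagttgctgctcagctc
Rptn (chr3:93393449-93393698, plus strand): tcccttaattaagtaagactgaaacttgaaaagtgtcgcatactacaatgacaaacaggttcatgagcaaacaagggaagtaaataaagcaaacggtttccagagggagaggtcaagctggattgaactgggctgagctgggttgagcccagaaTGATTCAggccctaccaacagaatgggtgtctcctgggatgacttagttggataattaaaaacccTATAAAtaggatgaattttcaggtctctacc
Lce3f (chr3:92991967-92992216, plus strand): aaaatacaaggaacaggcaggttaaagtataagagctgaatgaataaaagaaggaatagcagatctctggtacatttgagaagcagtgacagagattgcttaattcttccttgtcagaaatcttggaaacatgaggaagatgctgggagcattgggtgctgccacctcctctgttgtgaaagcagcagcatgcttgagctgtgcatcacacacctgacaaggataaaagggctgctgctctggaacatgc
In Sprr2b, Sprr2d, Sprr2e, Sprr2f, Sprr2h, Sprr2i and Sprr2k the TATA letters began at position -29 from the start, and the first AP-1 letters at positions from -198 to -193. In Ivl they began at -29 and -116, and in Rptn at -31 and -96. The Sprr2 genes named above nearly share their positions, yet each was counted. The shares among the members and the Sprr genes are therefore not of independent genes. The letters CCACCC (KLF and SP factors, either strand) occurred in 33.3% of the members with a promoter and 34% of all such genes. AACNGGTT (grainyhead factors, either strand) occurred in 3 of 54 and 2.35%. TTGCGCAA (C/EBP factors, either strand) occurred in 0 of 54 and in 0.207% of all such genes. A p53 family core motif occurred in 3 of 54, all of the Lce family, and in 0.451% of all. A match describes these letters only and shows no binding.

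In cervix the members covered a wide range of levels, from highly expressed genes to single reads. In PBS cervix the highest mean level per kilobase of exon was that of Sprr1a, a small proline-rich envelope precursor (752 CPM per kb). Next came Calml3, a calmodulin-like protein of epithelia (482 CPM per kb), Sfn, the epithelial 14-3-3 protein sigma (408 CPM per kb), and Ly6d, a membrane-anchored surface protein (402 CPM per kb). Sprr2f (269 CPM per kb) and Spink5, an inhibitor of the proteases that shed squames (204 CPM per kb), followed. The order also depends on the annotated exon length. Sprr2a1 averaged 427 CPM but had 142 CPM per kb, with 3003 bases of exon against 609 for Sprr2f. With the spread over libraries, neighbours in this order are not told apart: in PBS cervix Sprr1a ran from 159 to 1334 CPM and Sfn from 125 to 2175 CPM. Lor, whose product loricrin is the main envelope protein of skin, had 3.67 CPM per kb.

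The complex on chromosome 3 was used in part. The 13 Lce1 genes, late envelope genes of cornifying skin, had 152 counts in all over 10 PBS cervix libraries, and the 5 Lce3 genes 2354 counts. The Sprr2 genes held between 109 and 1139 CPM per PBS cervix library (median 672 CPM), and the Sprr1, Sprr3 and Sprr4 genes between 166 and 1625 CPM (median 544 CPM). All 56 genes had a count in some cervix library. Reads of Sprr2a1 and of the other Sprr2 and Lce1 genes could have been split between near-identical copies, which makes their single values uncertain.

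**Figure D1:**
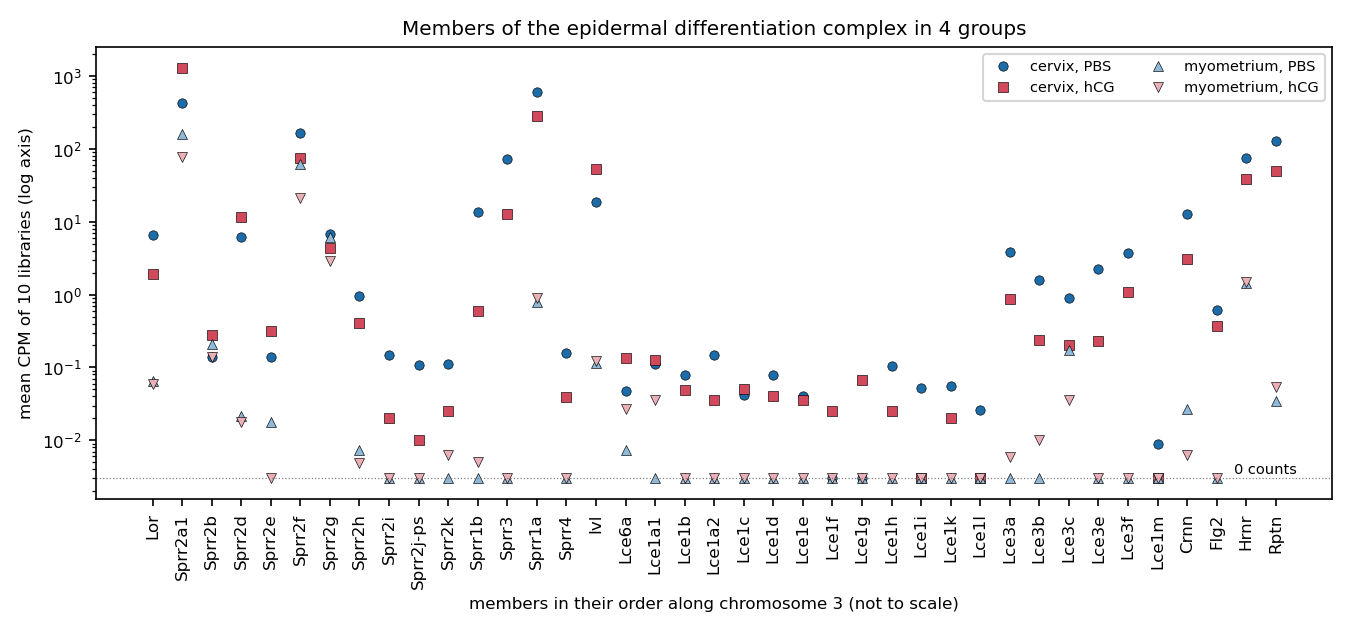
Mean CPM over 10 libraries (log axis) of the 39 measured genes of the chromosome 3 complex, in gene order and not to scale, in cervix and myometrium of PBS and hCG mice; a mean of 0 is drawn on the dotted line. Sprr1a, Sprr2a1, Sprr2f, Sprr3, Ivl, Hrnr and Rptn stand well above the Lce1 genes, and most myometrium points lie far under the cervix points except for Sprr2a1, Sprr2b, Sprr2f, Sprr2g and Lce3c.

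Which members set cervix apart from myometrium was asked in the PBS mice. Of the 23 members that passed the filter on low counts, 20 were higher in cervix (edgeR, adjusted p under 0.05), beside 28.1% of all genes tested higher and 26.1% lower. A gene that passed this filter only through its cervix counts had to differ, so the count says little beyond the label. Levels did not overlap between the tissues for 13 of the 23, beside 7.01% of all genes with higher, non-overlapping levels in cervix. In all PBS myometrium libraries 24 of the 56 members had no count, and in all hCG myometrium libraries 20.

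Sprr1a ran from 159 to 1334 CPM (median 518) in PBS cervix and from 0.200 to 1.42 CPM (median 0.811) in PBS myometrium, a log2 difference of 9.59 (SE 0.509, edgeR adjusted p = 1.14e-12). Spink5 ran from 196 to 1910 CPM (median 692) in cervix, and 8 of the 10 myometrium libraries had no count of it. Tgm5, a transglutaminase of upper squamous layers, had a log2 difference of 9.89 (SE 0.511), Ivl, the envelope precursor involucrin, 7.11 (SE 0.437) and Ly6d 8.06 (SE 0.532). In the myometrium libraries alone Sprr1a passed the filter, while Spink5, Tgm5, Ivl and Ly6d did not. For these 4 genes the values give a size and no test. Sprr3, the small proline-rich protein of wet mucosa such as oesophagus, had no count in any PBS myometrium library, and its cervix mean of 73.1 CPM was at least 3040-fold higher (3 counts over the group as floor). For Sprr1b the bound was 557-fold and for Lce3f 154-fold.

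A few members were present in the myometrium libraries as well. The titles call these libraries uterus, and columnar and mucous epithelium markers summed to between 708 and 1882 CPM in the PBS ones. Which cells carried the members there was not tested. Calml3 averaged 57.2 CPM there against 685 CPM in cervix, Dmkn 26.5 against 192 CPM, Serpinb5 25.0 against 412 CPM and Sbsn 24.5 against 79.6 CPM, all higher in cervix (log2 3.60, 2.87, 4.06 and 1.72). Sprr2f averaged 61.1 CPM in myometrium and 164 CPM in cervix (log2 1.45, SE 0.479, edgeR adjusted p = 0.0143). Sprr2a1 (159 against 427 CPM, log2 1.44, SE 0.832, adjusted p = 0.151) did not pass the threshold. Its 3 highest PBS myometrium libraries, PBS R3, PBS 8 and PBS 4, were rich in 5 yolk sac markers (11911, 11509 and 18718 CPM in sum, against at most 768 CPM in the other 7). Without them Sprr2a1 was higher in cervix (log2 4.21, SE 0.726, edgeR adjusted p = 8.14e-05), and Sprr2f had a log2 difference of 2.26 (edgeR adjusted p = 0.000145). Sprr2g (6.18 against 6.88 CPM, adjusted p = 0.778) and Casp14, the caspase of terminal keratinocyte differentiation (3.48 against 2.89 CPM, adjusted p = 0.523), did not pass with or without these libraries.

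How hCG altered the barrier genes was then asked within cervix. In hCG cervix 6 members were lower than in PBS cervix and 0 were higher: Sfn, Sbsn, Serpinb5, Tgm1, Cdsn and Dmkn, with folds of 0.202 to 0.336. These are 6 of 26 members tested (23.1%), beside 4.17% of all 14932 genes called lower and 4.74% called higher. The members were chosen with earlier results of these data known, so this share is no independent support. The log2 fold change was below 0 for 23 of the 26, with a median of -1.30, and below 0 for 49.2% of all genes, with a median of 0.01. In bulk tissue, fewer squamous cells and less RNA per cell cannot be told apart. The other 30 measured members, among them Lor, Flg2, Aloxe3 and all 19 Lce genes, did not pass the filter and were not tested. No member had levels that did not overlap between hCG and PBS. Of all genes 0.0268% (4 genes) lay wholly lower with hCG, and genes wholly higher with hCG were not counted.

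Sfn (chr4:133600556-133602168) ran from 125 to 2175 CPM (median 436) in PBS and from 37.2 to 338 CPM (median 88.0) in hCG cervix. PBS 4 was far above the rest, and 6 of 10 hCG libraries lay under the lowest PBS library. The log2 fold change was -2.26 (SE 0.529, edgeR adjusted p = 0.0275). Serpinb5 (maspin, chr1:106861175-106883348), a serpin of epithelial cells, ran from 105 to 829 CPM (median 335) in PBS and from 32.4 to 234 CPM (median 149) in hCG cervix. The groups overlapped, with 4 hCG libraries under the lowest PBS library and a log2 fold change of -1.57 (SE 0.420, edgeR adjusted p = 0.0328).

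Tgm1 (chr14:55700009-55713921) encodes the membrane-bound transglutaminase that crosslinks the envelope. It ran from 27.6 to 292 CPM (median 80.8) in PBS and from 0.909 to 59.2 CPM (median 17.9) in hCG cervix. hCG 5 was lowest, 6 hCG libraries lay under the lowest PBS library, and the log2 fold change was -2.13 (SE 0.582, edgeR adjusted p = 0.0338). The other transglutaminases did not pass. Tgm5 averaged 41.0 CPM in hCG and 100 CPM in PBS libraries (log2 -1.28, SE 0.448, edgeR adjusted p = 0.0690) and was under the PBS median in 10 of 10 hCG libraries. Tgm3, the soluble enzyme of epidermis and hair, had libraries with much and with almost none of it in both groups, from 0.114 to 73.9 CPM with hCG (median 0.363) and from 0.315 to 59.0 CPM with PBS (median 14.2; edgeR adjusted p = 0.673).

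Sbsn (suprabasin), Dmkn (dermokine) and Krtdap, all secreted proteins of the upper squamous layers, are neighbours on chromosome 7. Sbsn (chr7:30732674-30756134) ran from 22.4 to 229 CPM (median 50.7) in PBS and from 5.45 to 44.8 CPM (median 17.8) in hCG cervix, with 6 hCG libraries under the lowest PBS library (log2 -1.92, SE 0.451, edgeR adjusted p = 0.0275). Dmkn (chr7:30763756-30781066) ran from 37.5 to 527 CPM (median 157) in PBS and from 5.99 to 148 CPM (median 51.0) in hCG cervix (log2 -1.81, SE 0.553, edgeR adjusted p = 0.0455). PBS 4 was highest for both, and the groups overlapped for both. Krtdap ran from 2.19 to 185 CPM (median 37.3) and from 0.934 to 60.2 CPM (median 5.14), and with a log2 value of -2.22 (SE 0.763) it did not pass (edgeR adjusted p = 0.0663). Cdsn (chr17:35543101-35557180), the corneodesmosome protein that holds dead squames together, ran from 1.92 to 44.0 CPM (median 4.68) in PBS and from 0.0778 to 10.1 CPM (median 1.62) in hCG cervix. Its high PBS mean came from PBS 2 and PBS 4, while 7 hCG libraries lay under the lowest PBS library (log2 -2.30, SE 0.700, edgeR adjusted p = 0.0445).

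**Figure D2:**
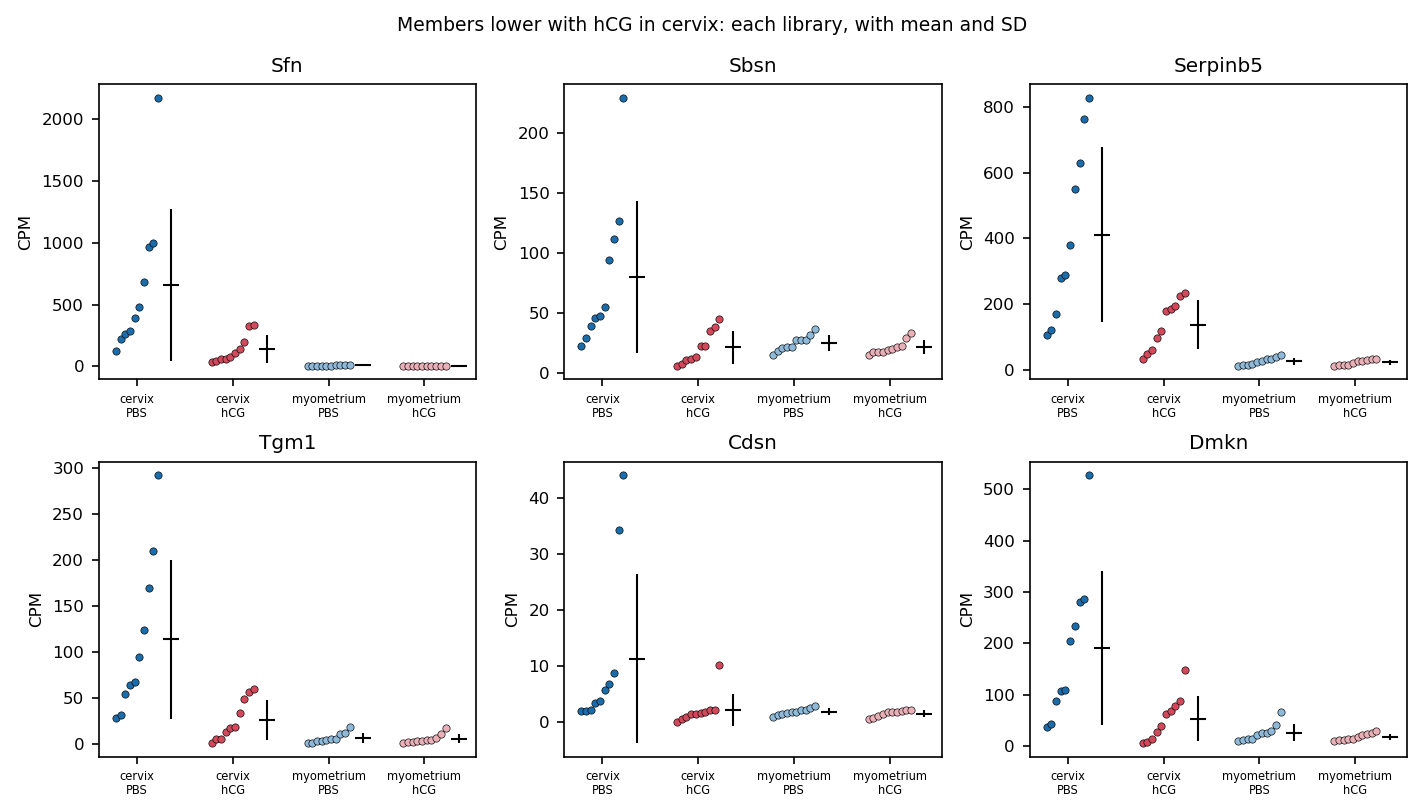
CPM of the 6 members that were lower with hCG in cervix, 1 point per library and 10 libraries per group, with the mean and SD beside them. The groups overlap in cervix in each panel, and PBS 4 is the highest point for Sfn (2175 CPM), Sbsn (229), Tgm1 (292), Cdsn (44.0) and Dmkn (527).

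The 6 calls rested on the whole set of libraries. The count was 0 without hCG 3, PBS 4, PBS 7 or PBS 8, where 1, 1, 1 and 2 of all genes passed in place of 1331. It was 3 without hCG 2, hCG 5, hCG 7 or PBS 10 (798, 403, 542 and 381 of all genes). Without hCG 1 it was 13, without PBS R3 12, without PBS 6 10 and without hCG 9 9 (1289, 1877, 1571 and 2006 of all genes). It was from 4 to 8 without each of the others. DESeq2 called 15 of 56 members, all lower, beside 1109 of 20352 genes lower and 1172 higher. A fit of all 40 libraries called 14 of 26 members lower and 1, Ivl, higher, beside 1593 of 15624 genes lower and 1831 higher. The direction of the 6 genes was the same in all 36 alternatives: Sfn lay between -3.18 and -1.09 on the log2 scale, Cdsn between -3.11 and -1.20, Sbsn between -2.50 and -0.87 and Serpinb5 between -1.89 and -0.62. Tgm1 lay between -2.66 and -0.19 and Dmkn between -2.32 and -0.31. These alternatives share most of their libraries, so the shared direction is no separate evidence. In the 20 fits that left out 1 library, Sfn and Sbsn passed in 16 and Serpinb5 in 13. Tgm1 passed in 12 of them, Cdsn in 8 and Dmkn in 7. Among the 10 deeper cervix libraries 1 member, Sfn, passed (log2 -3.18, edgeR adjusted p = 0.0465), and among the 10 shallower 0 did (Sfn -1.41, edgeR adjusted p = 0.799). Of all genes 242 and 0 passed in them. The corresponding log2 values in deeper and shallower libraries were -2.50 and -1.37 for Sbsn, -1.89 and -1.36 for Serpinb5, -2.66 and -1.61 for Tgm1, -2.86 and -1.96 for Cdsn and -2.32 and -1.37 for Dmkn. Without hCG 3 and hCG 5, 0 members passed, with Sfn at -2.02, Sbsn at -1.76 and Tgm1 at -1.83 (edgeR adjusted p = 0.0931 for each). Serpinb5 was then at -1.33, Dmkn at -1.53 and Cdsn at -2.17 (edgeR adjusted p = 0.0937, 0.121 and 0.128).

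**Figure D3:**
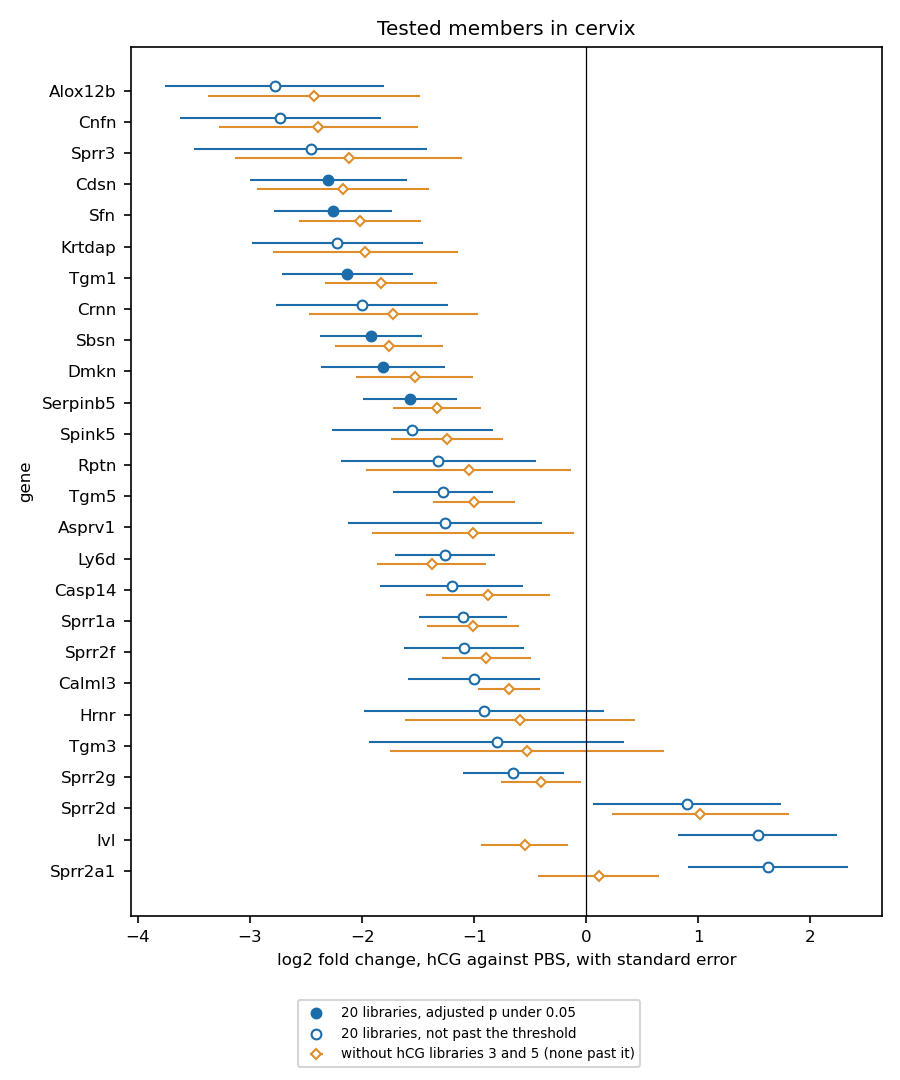
Log2 fold change with SE, hCG against PBS in cervix, of the 26 tested members in all 20 libraries (circles, filled where adjusted p is under 0.05) and without hCG 3 and hCG 5 (diamonds). Most members lie left of 0 in both fits, while Ivl moves from 1.53 to -0.55 and Sprr2a1 from 1.62 to 0.11.

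Markers of squamous cells moved with these genes. The summed level of 7 basal markers ran from 1697 to 8494 CPM in hCG and from 6068 to 22485 CPM in PBS cervix, and 2 of the 7 were lower with hCG: Krt5, the basal keratin (log2 -1.49, edgeR adjusted p = 0.0298), and Itgb4, an integrin of hemidesmosomes (-1.21, edgeR adjusted p = 0.0331). Of 8 suprabasal markers 3 were lower, the keratins Krt6a (-2.45), Krt16 (-4.80) and Krt6b (-2.98), and their sum ran from 161 to 14975 CPM against 6038 to 68347 CPM. Without hCG 3 and hCG 5 none of the 5 passed, with Krt5 at -1.23, Itgb4 at -1.11, Krt6a at -2.13, Krt16 at -4.47 and Krt6b at -2.65 (edgeR adjusted p from 0.0775 to 0.106). A lower sum was not confined to squamous markers. Columnar and mucous epithelium markers summed to between 1274 and 16097 CPM (median 6100) in hCG cervix. In PBS cervix their sum ran from 6659 to 17466 CPM (median 13544). Of the 7 tested genes of that list 0 passed, with 6 below 0 and a median log2 fold change of -0.17. The mean log2 level of Krt5, Krt14, Krt15 and Trp63 was then used as a covariate. With it 0 of 26 members and 0 of all 14932 genes passed (638 genes at an unadjusted p under 0.05). The loss of calls was thus not particular to the members, whose median log2 fold change was 0.08. Krt5 itself was lower with hCG, so this fit cannot tell the treatment from the covariate. In that fit Sfn was at -1.09, Cdsn at -1.20, Sbsn at -0.87, Serpinb5 at -0.62, Dmkn at -0.31 and Tgm1 at -0.19 (edgeR adjusted p = 1 for each). Of 6 neutrophil markers tested 4 were higher with hCG, with a sum of 14.5 to 229 CPM against 10.3 to 24 CPM, and 0 of the 6 passed without hCG 3 and hCG 5 (median log2 1.85 with all libraries and 1.90 without them). Their part in the result was not tested. Of 10 genes of epidermis and hair, 4 to 7 had no count in each cervix library, and Krt2, the keratin of interfollicular epidermis, stayed at 0.969 CPM or less. The keratins Krt1 and Krt10 of the same list reached 1256 CPM (PBS 4) and 2861 CPM (PBS 2). The list summed to between 209 and 3974 CPM in PBS and between 7.93 and 1884 CPM in hCG cervix.

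Of the Sprr family of envelope precursors, no tested gene passed between hCG and PBS cervix with all libraries. Whether their fold changes differed from each other was not tested. Sprr1a ran from 159 to 1334 CPM (median 518) in PBS and from 39.3 to 491 CPM (median 302) in hCG cervix, and all 10 hCG libraries lay under the PBS median (log2 -1.10, SE 0.390, edgeR adjusted p = 0.0715). Sprr3 ran from 4.11 to 309 CPM (median 29.6) and from 0 to 90.6 CPM (median 2.63; log2 -2.46, SE 1.04, edgeR adjusted p = 0.123). For Sprr1a PBS 2 and PBS 4 stood above all other libraries, and for Sprr3 hCG 1 stood apart within its group. Sprr2f, a Sprr2 gene that is known in mouse uterus as an oestrogen target, ran from 52.6 to 285 CPM (median 138) and from 0.413 to 161 CPM (median 63.8; log2 -1.09, edgeR adjusted p = 0.182). Its lowest library was hCG 5, and the groups overlapped. Sprr2d averaged 11.5 CPM in hCG and 6.17 CPM in PBS cervix (log2 0.90, SE 0.835, edgeR adjusted p = 0.501). Over the alternatives the log2 value of Sprr2d ran from -1.14 to 2.49. Sprr2g, a Sprr2 copy, averaged 4.36 and 6.88 CPM (-0.65, edgeR adjusted p = 0.356).

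Ivl and Sprr2a1 were the members with the highest positive values, and both were led by libraries rich in uroplakins. Ivl had 355 CPM in hCG 5, 77.8 CPM in hCG 3 and 42.7 CPM in hCG R3, and between 4.59 and 12.7 CPM in the other 7 hCG libraries. PBS libraries ran from 7.40 to 31.8 CPM (median 19.5), so 7 of 10 hCG libraries lay under the PBS median while the hCG mean was higher (53.4 against 18.5 CPM). The log2 fold change was 1.53 (SE 0.712, edgeR adjusted p = 0.157) with all libraries, 0.12 without hCG 5 and -0.55 (SE 0.386, edgeR adjusted p = 0.431) without hCG 3 and hCG 5. Sprr2a1 had 7360 CPM in hCG 5 and 2086 CPM in hCG 3, against at most 873 CPM in PBS cervix, where it ran from 53.1 CPM (median 464). Its log2 fold change was 1.62 (SE 0.715, edgeR adjusted p = 0.136), 0.60 without hCG 5 and 0.11 (SE 0.541, edgeR adjusted p = 0.926) without both. All 5 uroplakins were called higher in hCG than in PBS cervix, from log2 2.97 for Upk2 to 5.19 for Upk3a. Without hCG 3 and hCG 5, 0 of the 5 passed, with Upk2 at -0.03 and Upk3a at 1.29 (edgeR adjusted p = 0.974 and 0.464). In hCG 5 the squamous genes were uneven. Spink5 (0.248 CPM), Calml3 (0.165 CPM) and Sprr2f (0.413 CPM) were near 0, while Ly6d had its highest hCG cervix value there (217 CPM), Sprr1a had 316 CPM (hCG median 302) and Krt5 212 CPM.

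**Figure D4:**
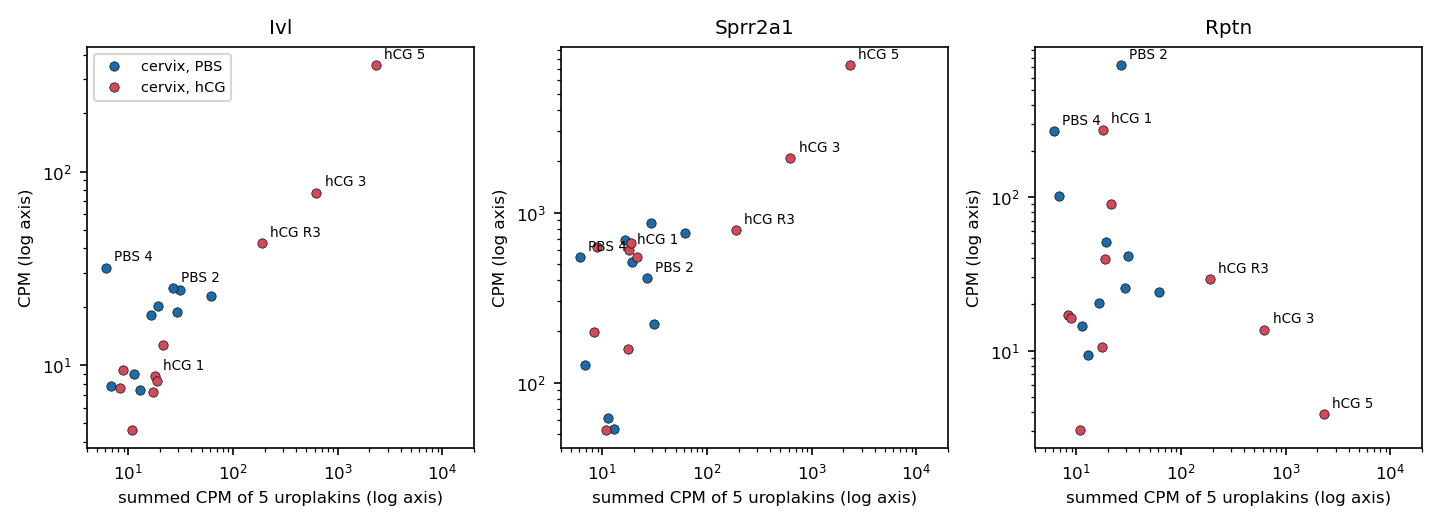
Level of Ivl, Sprr2a1 and Rptn (CPM, log axis) against the summed level of 5 uroplakins (CPM, log axis) in each of 20 cervix libraries. hCG 3, hCG 5 and hCG R3 lie at the right with the highest Ivl, while Rptn is highest in PBS 2, hCG 1 and PBS 4, which lie at the left.

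The fused S100 type proteins, large repeat proteins of the late squamous layers, were led by 3 libraries. Rptn (repetin) had 721 CPM in PBS 2, 275 CPM in hCG 1 and 268 CPM in PBS 4, and a median of 20.5 CPM with a highest value of 102 CPM in the other 17 cervix libraries. Hrnr (hornerin) had 354, 335 and 192 CPM in PBS 2, hCG 1 and PBS 4 and at most 98.5 CPM elsewhere. Crnn (cornulin), a protein of wet squamous mucosa, had 46.9, 16.2 and 38.9 CPM in them and at most 8.61 CPM elsewhere. For each of these genes hCG 1 was thus among the 3 highest cervix libraries, and the groups overlapped. The log2 fold changes were -1.32 for Rptn, -0.91 for Hrnr and -2.0 for Crnn (edgeR adjusted p = 0.323, 0.608 and 0.0918). Each value moved with single libraries of either group. Without hCG 1 the values were -2.35, -3.59 and -2.95 (edgeR adjusted p = 0.0711, 0.0301 and 0.0286), and without PBS 2 they were -0.29, -0.16 and -1.49 (edgeR adjusted p = 0.840, 0.939 and 0.197). Without PBS 4 they were -1.12, -0.62 and -1.60 (edgeR adjusted p = 0.476, 0.778 and 0.204).

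The same 3 libraries were the highest for 12 of the 38 members with at least 50 counts in cervix: Cdsn, Crnn, Flg2, Hrnr, Lce3b, Lce3c, Lce3e, Lce3f, Lor, Rptn, Sprr2h and Sprr3. Lor had 28.8 CPM in PBS 2, 22.8 CPM in PBS 4 and 18.3 CPM in hCG 1, and at most 4.60 CPM in the other 17 libraries. Lce3f, whose promoter is printed above, had 18.1, 13.6 and 5.93 CPM in them and at most 3.08 CPM elsewhere. Krt10, an early keratin of cornifying epithelium, was also highest within each group there, with 2861 CPM in PBS 2, 2709 CPM in PBS 4 and 1332 CPM in hCG 1. PBS 7 had 1459 CPM of Krt10, above hCG 1. Krt1, its partner keratin, had 686, 1256 and 544 CPM in PBS 2, PBS 4 and hCG 1 and 728 CPM in PBS 7, so these keratins did not set the 3 libraries apart from all others. hCG 1 also stood apart in markers of other tissues. Its sum of 7 skeletal muscle genes was 5731 CPM against at most 338 CPM in any other cervix library, its adipocyte sum 1270 CPM against at most 184 CPM in PBS cervix (2115 CPM in hCG 3), and its smooth muscle sum of 1174 CPM the lowest in cervix. The part of these tissues in the result was not tested. Without the 3 libraries 0 members and 0 of all genes passed, and the members' median log2 fold change was -1.60.

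Of the members too low to be tested, the Lce1 genes in sum, the Lce3 genes in sum, Lor and Flg2 were highest in the same libraries, and several others were not. Only their values are given. Of 93 counts of the 13 Lce1 genes in hCG cervix, 82 came from hCG 1, where 10 of the 13 had a count, and of 152 counts in PBS cervix 77 came from PBS 4 and 50 from PBS 2. The 5 Lce3 genes, known from skin for their response to barrier injury, summed to 61.3 CPM in PBS 2, 43.6 CPM in PBS 4 and 12.6 CPM in hCG 1, and to no more than 8.58 CPM (hCG 6) in any other cervix library. Their median was 3.12 CPM in PBS and 0.142 CPM in hCG libraries, and the ranges overlapped down to 0. Sprr1b, a close relative of Sprr1a, ran from 0 to 67.4 CPM (median 4.48) in PBS and from 0 to 4.45 CPM (median 0.126) in hCG cervix, and was highest in PBS 4 and PBS 8 (31.6 CPM). Flg2, a filaggrin relative, reached 1.61 CPM in PBS 4 and 3.48 CPM in hCG 1, and 7 of the 10 hCG libraries had no count. Aloxe3, the lipoxygenase that acts after Alox12b, stayed at 3.44 CPM or less, with 1.57 CPM in hCG 5. Lce6a had 19 of its 31 hCG cervix counts in hCG 5. Sprr2b was highest in hCG 3 (1.06 CPM) and Sprr2e in hCG 6 (1.21 CPM). Sprr2b, Sprr2e, Sprr2h, Sprr2i, Sprr2j-ps, Sprr2k and Sprr4 stayed at 2.46 CPM or less in every cervix library.

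Among the proteases and inhibitors, Spink5 ran from 196 to 1910 CPM (median 692) in PBS and from 0.248 to 1081 CPM (median 311) in hCG cervix. All hCG libraries but hCG 1 were under the PBS median (log2 -1.55, SE 0.717, edgeR adjusted p = 0.155). Casp14 averaged 1.22 CPM with hCG and 2.89 CPM with PBS (-1.20, SE 0.639, edgeR adjusted p = 0.216), and Asprv1, the protease that processes filaggrin, 10.8 and 26.2 CPM (-1.26, SE 0.869, edgeR adjusted p = 0.348). Alox12b, a lipoxygenase that acts on barrier ceramides, ran from 1.16 to 55.3 CPM (median 5.61) in PBS and from 0 to 12.7 CPM (median 0.228) in hCG cervix. Of the hCG libraries 8 lay under the lowest PBS library, and the gene did not pass (-2.78, SE 0.978, edgeR adjusted p = 0.0705).

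Cnfn, cornifelin, an envelope component, ran from 0.429 to 40.2 CPM (median 3.05) in PBS and from 0 to 5.88 CPM (median 0.554) in hCG cervix (log2 -2.73, SE 0.897, edgeR adjusted p = 0.0567). Ly6d ran from 57.3 to 885 CPM (median 250) and from 20.2 to 217 CPM (median 126; -1.26, SE 0.444, edgeR adjusted p = 0.0709). Calml3 ran from 357 to 1232 CPM (median 622) and from 0.165 to 665 CPM (median 376; -1.0, SE 0.590, edgeR adjusted p = 0.265). PBS 4 was highest for Cnfn and Ly6d and PBS 2 for Calml3, and the groups overlapped for all 3 genes.

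**Figure D5:**
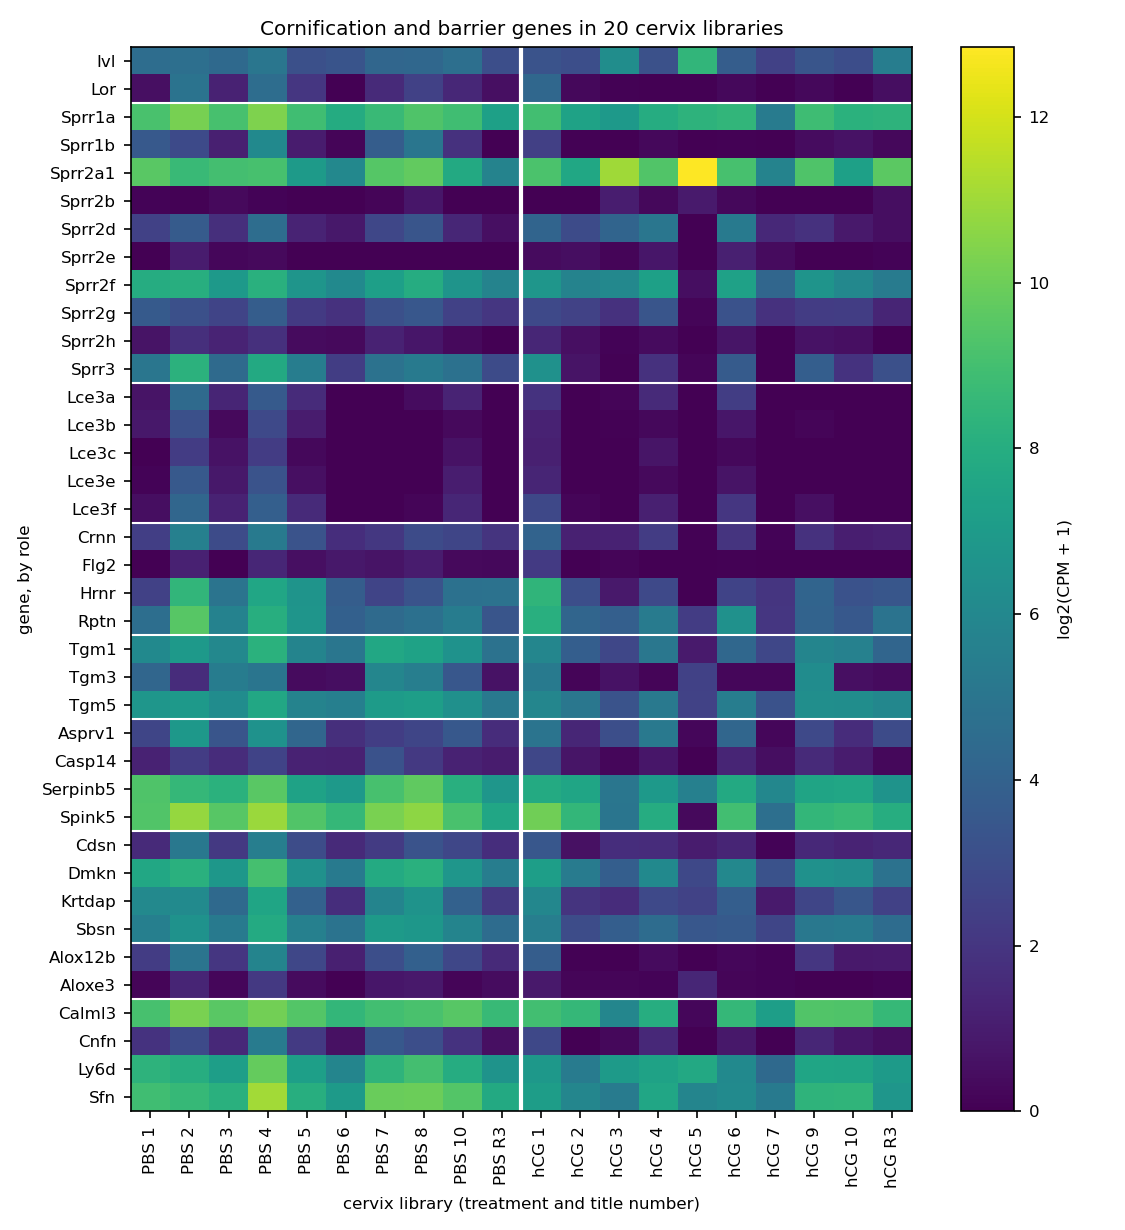
Level of 38 members with at least 50 counts in cervix, as log2(CPM + 1), in the 10 PBS (left) and 10 hCG (right) cervix libraries, with genes grouped by role. hCG 5 is dark for most genes and brightest for Sprr2a1, and PBS 2, PBS 4 and hCG 1 are bright for Rptn, Hrnr and the Lce3 genes.

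The libraries ranked alike over many members. PBS 4 was among the 3 highest cervix libraries for 23 of the 26 tested members, PBS 8 for 15 and PBS 2 for 13. hCG 7 was among the 3 lowest for 23, hCG 5 for 20 and hCG 3 for 13. In hCG 7 the uroplakin sum was 10.8 CPM and the basal marker sum 2390 CPM, and their part in its low values was not tested.

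Other genes of the cornification pathway were taken from 3 lists, and their counts stand beside 4.17% of all genes called lower. These lists, too, were chosen with earlier results of these data known. Of 13 tested genes of the envelope scaffold and its inhibitors 3 were lower with hCG and 0 higher: Evpl and Ppl, the plakins envoplakin and periplakin on which the envelope forms (log2 -1.70 and -1.22), and Cst6, a cysteine protease inhibitor (-2.03). Evpl averaged 51.6 CPM with hCG and 167 CPM with PBS. Of 14 kallikreins and other shedding proteases 1 was lower, Klk8 (-1.88). Of 18 lipid barrier genes 8 were lower and 0 higher, including Elovl1, a fatty acid elongase (-0.79), Cyp4f39, a fatty acid hydroxylase of ceramide synthesis (-2.34), Sult2b1, a cholesterol sulfotransferase (-2.17), and Slc27a4, a fatty acid transporter (-1.0). All 12 calls were lost without hCG 3 and hCG 5, where Evpl was at -1.49, Klk8 at -1.81 and Elovl1 at -0.77 (edgeR adjusted p = 0.119, 0.0937 and 0.0727), and 0 genes of the 3 lists passed without hCG 3, PBS 4, PBS 7 or PBS 8 alone. The lists' median log2 fold changes were -0.86, -1.01 and -0.89 with all libraries, and -0.70, -0.53 and -1.02 without hCG 3 and hCG 5, beside 0.01 for all genes with all libraries. In PBS mice 11 of 12, 8 of 13 and 13 of 17 tested genes of these lists were higher in cervix than in myometrium, beside 28.1% of all genes. Lower were 0, 3 and 3, beside 26.1%. In the myometrium libraries alone only 7, 8 and 12 genes of the lists passed the filter, so part of the higher counts followed from the filter.

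In myometrium no member passed between hCG and PBS: 0 of the 14 tested with edgeR, with 2 at an unadjusted p under 0.05 and 0 with DESeq2, beside 0.0138% of all genes (2 of 14517). Sprr2f ran from 12.9 to 204 CPM (median 34.2) in PBS and from 5.23 to 52.5 CPM (median 18.6) in hCG myometrium. PBS R3 and PBS 8 were far above the rest, and the groups overlapped (log2 -1.51, SE 0.551, edgeR adjusted p = 0.181). Sprr2g averaged 2.90 CPM with hCG and 6.18 CPM with PBS (-1.11, SE 0.525, edgeR adjusted p = 0.312). Sprr2a1 differed most between libraries of 1 group, with 610, 429 and 395 CPM in PBS R3, PBS 8 and PBS 4 and from 1.85 to 51.2 CPM in the other 7 PBS libraries. Those 3 are the PBS libraries rich in yolk sac markers. With hCG it reached 353 CPM in hCG 10, which had the highest yolk sac sum (30104 CPM), and was as low as 1.58 CPM in hCG 6, which had the lowest of its group (110 CPM). hCG 3, with a yolk sac sum of 10277 CPM, had 20.1 CPM of Sprr2a1. Sprr2f was high in PBS R3 and PBS 8 and not in PBS 4 (21.3 CPM). The part of yolk sac tissue in these levels was not tested. The log2 fold change of Sprr2a1 was -1.04 (SE 1.05, edgeR adjusted p = 0.699) with all libraries and -1.04 (SE 0.852, edgeR adjusted p = 0.767) without the 8 libraries whose yolk sac sum was above 5000 CPM, and that of Sprr2f without them was -0.63 (edgeR adjusted p = 0.717). Casp14 ran from 2.0 to 5.31 CPM in PBS and from 0.802 to 4.33 CPM in hCG myometrium (-0.50, SE 0.248, edgeR adjusted p = 0.335).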

How the data were processed

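The values the authors deposited are raw read counts for each gene in 40 libraries, whole numbers not scaled to depth. Per the labels' protocols, stranded libraries were made from total RNA. The submitters' processing notes name TopHat2 and the build GRCm38 (mm10). Versions, counting tool and counting strand are not stated there, so reads of overlapping or antisense genes cannot be told apart. Gene names, coordinates and promoters came from RefSeq tables of GRCm38.p6 (23008 of 23079 identifiers matched), and exon lengths from GENCODE M21 (54 of the 56 members with a row). From the counts, levels were computed as CPM with TMM factors over 40 libraries. Tests used R 4.3.3 and edgeR 4.0.16 (filterByExpr on the groups compared, TMM, robust quasi-likelihood F-test, Benjamini-Hochberg over all genes tested, threshold 0.05), each on the 20 libraries of the 2 groups compared. SE is the size of a log2 fold change over the root of its F statistic. DESeq2 1.42.0 and limma 3.58.1 served as alternatives, with other scaling factors and filters, depth, replicate blocks, left-out libraries and a covariate of basal keratins. The steps were tested on simulated data. Libraries of 1 group differed by more than sampling noise (chi-square per gene of at least 10.5), so none was merged. The members, the related lists and the markers were chosen with earlier results of these data known. Named were the listed genes and the Sprr genes that passed the filter, with up to 4 examples of each related list, and genes of libraries that stood apart were named after their values were seen. Proteins were not used here.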

Additional observations from a re-analysis of the deposited data

Results flagged for a closer look

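In 80 groups of 10 libraries (a tested member in 1 group, as log2(CPM + 1)), the gap of the highest or lowest library to its neighbour, divided by the range, passed Dixon's 95% critical value in 6, where chance gives about 1 in 20. In hCG cervix, library 5 was lowest for Calml3 (0.165 CPM) and Sprr2f (0.413 CPM). In hCG cervix, library 1 was highest for Cdsn (10.1 CPM), Cnfn (5.88 CPM) and Hrnr (335 CPM). In hCG myometrium, library 8 was lowest for Sfn (1.26 CPM).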

How the results depend on the processing

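Between hCG and PBS in cervix, 6 members and 1331 genes passed. DESeq2 gave 15 members and 2281 genes, and 1 fit of 40 libraries 15 and 3424. Deeper libraries alone gave 1 and 242 and shallower ones 0 and 0 (776 genes at an unadjusted p under 0.05). A depth term gave 508 genes. Left-out libraries gave 0 members and few genes: 0 genes without hCG 1, 3 and 5 (2833 unadjusted), 1 without PBS 5 to 8, which are rich in Lars2. After the data were seen 3 more were added, with 5 genes without hCG 3 and 5 and 0 without hCG 1, PBS 2 and PBS 4 (3107 unadjusted); without the myometrium libraries rich in yolk sac markers 0 genes passed in myometrium (1098 unadjusted) and 26 members between tissues. The basal keratin covariate gave 0 members and 0 genes (638 unadjusted). Leaving out 1 library gave 0 to 13 members and 1 to 2065 genes. Of members higher in cervix, DESeq2 found 34 and no filter 47, with 20 in each leave-one-out fit (7512 to 8235 genes). In myometrium DESeq2 found 407 genes, and leave-one-out fits 1 to 137, with 0 members in each.

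Values past 0 the other way, none of them passing: Ivl -0.10 with the replicate block, -0.30 with voom, -0.49 without hCG 1, 3 and 5 and -0.55 without 3 and 5; Sprr2d -0.07 with the depth term and -1.14 in shallower libraries; Asprv1 0.30 without hCG 1, PBS 2 and PBS 4. With the basal keratin covariate they were Tgm5 0.03, Tgm3 0.26, Sprr2a1 -0.44, Sprr2f 0.14, Sprr2g 0.50, Sprr3 0.35, Ivl -1.54, Hrnr 1.99, Rptn 0.29, Asprv1 0.61, Cnfn 0.63, Casp14 0.83, Alox12b 0.36, Calml3 0.58 and Spink5 1.01. In myometrium the replicate block gave Sprr2a1 0.02 and Sprr2g 0.08. The cause was not tested. The labels do not say that a title number marks an animal. Same-number libraries correlated from -0.06 to 0.35 between hCG and PBS in cervix (4 of 9 over 0.1, 1 of 9 best with its own number), from -0.28 to 0.29 in myometrium (3 of 8 and 0 of 8) and from -0.30 to 0.63 between cervix and myometrium of PBS mice (5 of 9 and 4 of 9), so not every pair was over 0.1. As a replicate block the numbers gave 4 members in cervix, 20 between tissues and 0 in myometrium.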
